A study of Mus musculus with 24 samples.

Results

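Hypothalamic inflammation was examined through 10 genes of cytokine, NF-kB and acute-phase signaling, namely Lcn2, Serpina3n, Nfkbia, Ikbkb, Tnfrsf1a, Il1r1, Ccl2, Icam1, Cd14 and Tgfb1. The genes were chosen by symbol and matched by Ensembl ID, and all 10 were found among the 55471 genes counted. RNA came from the hypothalamus of chow-fed male C57BL6/J mice, 18 weeks old, with 1 library per mouse and 6 mice per group. ExpOF mice received a sucrose-supplemented liquid diet (Nutridrink) through a gastric catheter for 14 days, at up to 150% of their energy need, and control mice received sterile water the same way. ExpOF d14 and Control d14 mice were sampled at the end of overfeeding. ExpOF d14+3 and Control d14+3 mice were sampled after 3 more days in which both arms received water. All mice therefore carried a catheter and had free access to chow, and the whole hypothalamus was sequenced, so that fewer cells of a type and less RNA per cell cannot be told apart.

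NF-kB is a family of transcription factors held in the cytoplasm by inhibitor proteins. When a cytokine or microbial receptor is engaged, the kinase IKK-beta marks the inhibitor for destruction, NF-kB enters the nucleus, and it induces adhesion molecules, chemokines, acute-phase proteins and its own inhibitor. In rodents fed high-fat diets, activity of this pathway and reactive glia have been described in the mediobasal hypothalamus, which is why the same genes are of interest when weight is gained by overfeeding.

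Library totals spanned 8928182 to 34848437 counts, with a median of 23142768.5. Values are given over 23 libraries, without Control d14 replicate 4. The study left out a control d14 mouse for poor RNA quality without naming it, and this library was taken to be that mouse because the study's mean expression values match only without it. Its RNA integrity number in the labels was 9.8. Of 16 genes listed as markers of hypothalamic neurons, 15 were detected, and Kiss1 was at 0 in all 23 libraries. Among the 15 is Rax, which is also listed as a marker of ependyma and tanycytes. Another 2 libraries stood apart in markers of the choroid plexus, the secretory tissue that projects into the ventricles. The summed level of 10 such markers was 3124 CPM (counts scaled to a common library size, after TMM scaling) in Control d14 replicate 5 and 1371 CPM in ExpOF d14+3 replicate 4, against 73.3 to 112 CPM in the rest. For the 10 genes, values that leaving these libraries out moved most are given with and without them. Levels and fold changes of other single genes are given with them only.

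The genes were expressed at very different levels. Per kilobase of counted exon, the median over the 23 libraries was 27.0 CPM for Serpina3n, 9.30 CPM for Nfkbia, 5.35 CPM for Tnfrsf1a and 2.60 CPM for Ikbkb. Cd14 followed at 1.26 CPM per kilobase, Tgfb1 at 0.763, Il1r1 at 0.722, Lcn2 at 0.591, Icam1 at 0.554 and Ccl2 at 0.101. Ikbkb has 19078 counted bases, the most of the 10 genes, which lowers its value on this scale. In counts, the weakest genes were Ccl2, with a median of 3 counts per library, and Lcn2, with a median of 37. Icam1 and Cd14 had medians of 60 and 51 counts. Ccl2 had 3 counts or fewer in 12 of the 23 libraries and did not pass the expression filter, so 9 of the 10 genes were among the 18992 genes tested.

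The genes also differed in how much mice of the same group varied. The SD within groups, on the log2 CPM scale, was 1.52 for Lcn2, and 23 of the 18992 tested genes had a larger one. Icam1 (0.50), Cd14 (0.50) and Il1r1 (0.43) were also above the median of all tested genes, which was 0.20. Serpina3n (0.17), Tnfrsf1a (0.19) and Nfkbia (0.20) lay near that median, and Ikbkb (0.09) was the most uniform of the 9.

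**Figure D1:**
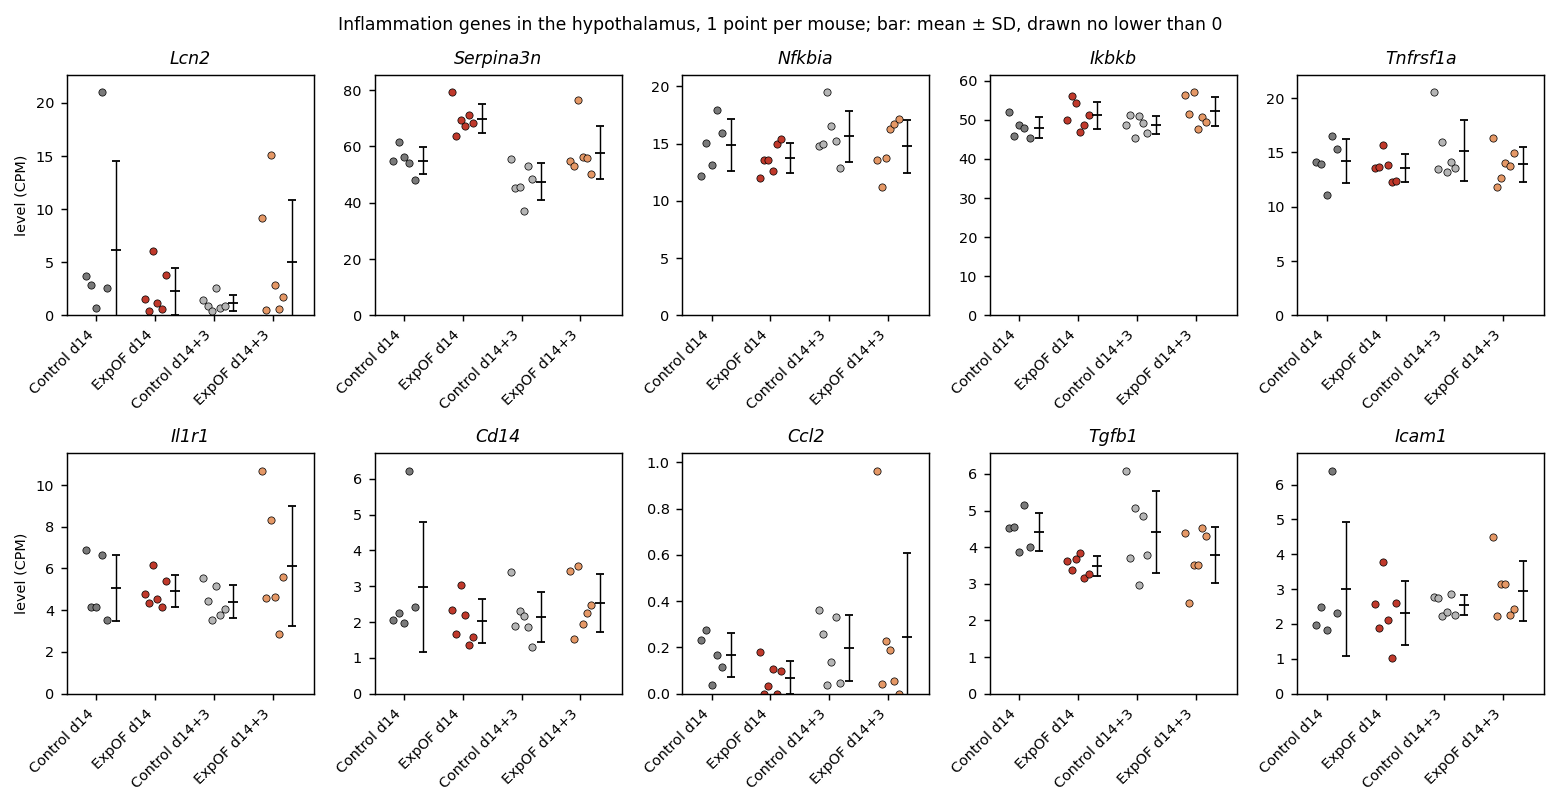
Level of each gene in CPM (y axis, from 0) in each of the 4 groups (x axis), 1 point per mouse, with the group mean ± SD (drawn no lower than 0) beside the points. For Serpina3n on d14, all 6 ExpOF mice (63.8 to 79.2 CPM) lie above all 5 control mice (48.1 to 61.6 CPM), while a single mouse sets the highest Lcn2, Cd14 and Icam1 values in Control d14.

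NF-kB binds a consensus motif of 10 bases, written with purine and pyrimidine alternatives. The motif was searched on both strands in the 250 bases before each transcription start that RefSeq gives for these genes (build GRCm38.p6), and 7 of the 10 genes had a start in that table. A match was present before 3 of their 8 starts, and 7.25% of the 32851 promoters in the table held one. The 3 matches are shown in capitals with their flanks, 5′ to 3′ along the gene, because Nfkbia is the feedback inhibitor of the pathway and Il1r1 and Tgfb1 are a receptor and a ligand described in the results. They lie at chr12:55492657-55492686 (minus strand), chr1:40266344-40266373 (plus strand, before the second of 2 starts) and chr7:25686852-25686881 (plus strand).
Nfkbia: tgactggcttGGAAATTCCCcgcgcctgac
Il1r1: cagggattttGGAATGCCCCcaaggagatg
Tgfb1: cagggctgaaGGGACCCCCCttggagcccg
The Nfkbia match begins 29 bases before the start, the Tgfb1 match 140 and the Il1r1 match 232. A match of letters is a description and says nothing of binding in these mice. Lcn2, Serpina3n, Tnfrsf1a and Icam1 had no match in this window.

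To ask whether overfeeding changed inflammatory gene expression, ExpOF and control mice were compared on each day with edgeR's quasi-likelihood test, with p-values adjusted by Benjamini-Hochberg over all genes tested. On d14, 0 of the 9 genes had an adjusted p-value under 0.05, and 1 of the 18992 tested genes did (0.00527%). Before adjustment, 2 of the 9 had a p-value under 0.05, Serpina3n (higher) and Tgfb1 (lower), where 26.7% of all genes tested passed the same threshold. On d14+3, 0 of the 9 genes were called, as were 0 of all genes tested (0%). Lcn2 and Serpina3n, 2 of the 9, were higher with an unadjusted p-value under 0.05, beside 7.11% of all genes tested. The share on d14 is thus close to the share over all genes. With the Wald test of DESeq2, 0 of the 9 were called on either day, where 0.874% of all genes tested were called on d14 and 0.29% on d14+3. Before adjustment 1 and 3 of the 9 had a p-value under 0.05 in DESeq2, beside 27.5% and 7.47% of all genes tested.

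**Figure D2:**
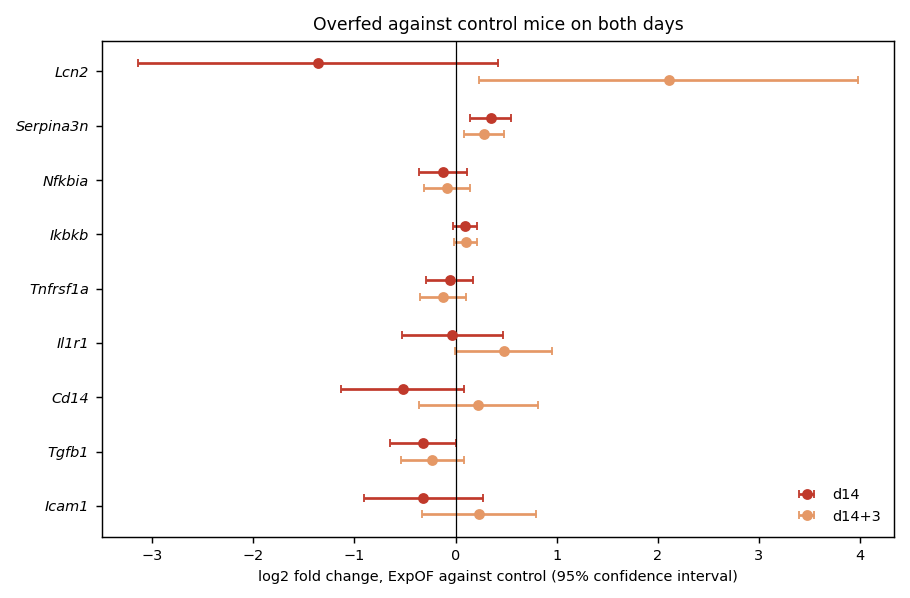
Log2 fold change of ExpOF against control mice (x axis) with its 95% confidence interval for the 9 tested genes, on d14 (red) and d14+3 (orange), from edgeR. Serpina3n lies above 0 on both days (0.35 and 0.28), and the intervals of Lcn2 are the widest, from -3.14 to 0.42 on d14 and from 0.24 to 3.98 on d14+3.

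Serpina3n encodes a secreted serine protease inhibitor of the acute-phase response and is a common marker of reactive astrocytes. The gene lies on chromosome 12 from 104406729 to 104414329, plus strand (mm10), and 631 to 2659 counts per library were assigned to it. On d14 the 5 control mice had 48.1, 54.1, 55.0, 56.2 and 61.6 CPM. The ExpOF d14 mice had between 63.8 and 79.2 CPM with a median of 68.9. The 2 groups thus did not overlap, and 1.54% of all genes tested separated in this direction.

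The Serpina3n mean was 69.9 ± 5.19 CPM (SD, n = 6) in ExpOF d14 and 55.0 ± 4.81 CPM (SD, n = 5) in Control d14. This is a log2 fold change of 0.35 (SE 0.10), or 1.27-fold, with an unadjusted p of 0.00175 and an adjusted p of 0.135 in edgeR. The two-sided exact permutation test of the mean log2 CPM gave p = 0.00216, the smallest value that the 462 groupings allow. The log2 fold change was 0.37 in the July cohort alone and 0.32 in the September cohort alone. Over the alternatives the adjusted p was at least 0.0270, and it was under 0.05 in 1 of them, the fit without Control d14 replicate 1, in which 4220 of 19206 genes were called. With Control d14 replicate 4 included, the log2 fold change was 0.38 and the adjusted p 0.0633, and with DESeq2 they were 0.35 and 0.0527.

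On d14+3 Serpina3n ranged from 37.0 to 55.7 CPM in control mice (median 47.0) and from 50.3 to 76.4 CPM in ExpOF mice (median 55.4). Here the groups overlapped, with 3 of 6 ExpOF mice above every control mouse. The mean was 57.8 ± 9.39 CPM in ExpOF d14+3 and 47.5 ± 6.62 CPM in Control d14+3 (SD, n = 6 each). The log2 fold change was 0.28 (SE 0.09), with an adjusted p of 0.492 in edgeR and p = 0.0260 in the two-sided exact permutation test. Without ExpOF d14+3 replicate 3, the mouse with 76.4 CPM, it was 0.19. Against July and September values of 0.29 and 0.27, the direction was the same in both cohorts.

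Astrocyte markers were compared beside Serpina3n. The summed level of 10 such markers ranged from 4370 to 4551 CPM in Control d14 and from 4480 to 4601 CPM in ExpOF d14, and from 4365 to 4710 CPM and 4473 to 4652 CPM in Control and ExpOF d14+3. Their part in the Serpina3n difference was not tested. Serpina3n belongs to a cluster of near-identical genes. Of all counts assigned to the 11 Serpina3 genes, 95.9% were assigned to Serpina3n, and how the counting split reads between copies was not tested.

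Lcn2 encodes lipocalin 2, an iron-siderophore binding protein that is strongly induced in inflamed brain. It lies on chromosome 2 from 32384633 to 32388252, minus strand. The 5 Control d14 mice had 0.658, 2.59, 2.85, 3.73 and 21.0 CPM. The ExpOF d14 mice had between 0.444 and 6.06 CPM with a median of 1.36, so the groups overlapped widely. On d14+3 control mice had between 0.403 and 2.57 CPM (median 0.925) and ExpOF mice between 0.463 and 15.1 CPM (median 2.32), with 3 of 6 ExpOF mice above every control mouse.

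The Lcn2 log2 fold change was -1.36 (SE 0.85) on d14 (adjusted p = 0.295 in edgeR) and 2.11 (SE 0.90) on d14+3 (adjusted p = 0.650). The mean log2 CPM differed by -1.10 on d14 and 1.24 on d14+3, with p = 0.279 and p = 0.197 in the two-sided exact permutation test. Both log2 fold changes rest on few mice. Without Control d14 replicate 5, the mouse with 21.0 CPM, the d14 value was -0.01. Without ExpOF d14+3 replicate 3 the d14+3 value was 1.38, and without ExpOF d14+3 replicate 1 it was 1.85. With RNA integrity as a covariate the d14 value was -0.25 and the d14+3 value 2.91 (adjusted p = 0.212, the lowest over its alternatives). The RNA integrity number was 9.20 ± 0.860 (SD, n = 5) in Control d14, 9.75 ± 0.138 in ExpOF d14, 8.62 ± 1.09 in Control d14+3 and 9.43 ± 0.450 in ExpOF d14+3 (SD, n = 6 each).

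The difference between the days was tested as an interaction. For Lcn2 the interaction was 3.47 on the log2 scale (SE 1.24), with an unadjusted p of 0.0110 and an adjusted p of 0.903 in edgeR. Without Control d14 replicate 5 it was 2.12, with an unadjusted p of 0.0758. None of the 9 genes had a called interaction, and 0% of all genes tested did. At an unadjusted p-value under 0.05 Lcn2 was the 1 gene of the 9, beside 4.42% of all genes tested. Serpina3n had an interaction of -0.06 (SE 0.14), and the 95% confidence interval of this difference ran from -0.35 to 0.22.

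Lcn2 is abundant in neutrophils, so their markers were examined. S100a8 had at most 4.16 CPM and S100a9 at most 6.70 CPM, and Ly6g was at 0 in 14 of the 23 libraries. Csf3r had the highest median of the 10 markers, 6.82 CPM (5.82 to 9.95 CPM). Of the 7 markers tested, 1 was higher in ExpOF mice on d14 (median log2 fold change -0.54) and 7 on d14+3 (median 0.56). On both days 0 of the 7 had an unadjusted p under 0.05 in edgeR, beside 26.7% and 7.11% of all genes tested. The summed level of 10 neutrophil markers was 27.4 CPM in Control d14 replicate 5 and between 8.02 and 18.4 CPM in the other Control d14 mice. In ExpOF d14+3 it was 19.9 CPM in replicate 1 and 15.05 CPM in replicate 3, the mice with the most Lcn2, and 8.04 to 11.7 CPM in the others. In ExpOF d14 the sum was highest in replicate 6 (19.9 CPM, Lcn2 3.84 CPM). Replicate 3 of that group, with the most Lcn2 (6.06 CPM), had a sum of 14.1 CPM. In Control d14+3 the sum was highest in replicate 1 (11.5 CPM, Lcn2 1.49 CPM). Replicate 4 of that group, with the most Lcn2 (2.57 CPM), had a sum of 11.1 CPM. Control d14 replicate 5 was also 1 of the libraries high in choroid plexus markers, and the part of either cell type in its Lcn2 level was not tested. ExpOF d14+3 replicates 1 and 3 had 98.1 and 98.9 CPM of choroid plexus markers, within the range of the other libraries.

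Nfkbia encodes the inhibitor IkappaB-alpha, which NF-kB itself induces, and Ikbkb encodes the kinase IKK-beta. Nfkbia lies on chromosome 12 from 55489410 to 55492647, minus strand. It had 14.9 ± 2.28 CPM (SD, n = 5) in Control d14, 13.7 ± 1.32 in ExpOF d14, 15.6 ± 2.22 in Control d14+3 and 14.8 ± 2.30 in ExpOF d14+3 (SD, n = 6 each). The log2 fold change was -0.12 (95% confidence interval -0.36 to 0.11) on d14 and -0.09 (-0.31 to 0.14) on d14+3 (edgeR), so that a doubling or halving of Nfkbia lies outside both intervals. In the September cohort alone the d14+3 value was 0.0011. Without Control d14 replicate 5 the d14 value was -0.05. The inhibitor thus had overlapping levels in overfed and control mice on both days.

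Ikbkb lies on chromosome 8 from 22659212 to 22706578, minus strand, and overlaps the antisense gene Gm15346, whose reads could be told apart only if the counting used strand. Levels were 48.0 ± 2.64 CPM in Control d14 (SD, n = 5), 51.2 ± 3.43 in ExpOF d14, 48.7 ± 2.33 in Control d14+3 and 52.2 ± 3.78 in ExpOF d14+3 (SD, n = 6 each). The log2 fold changes were 0.09 (-0.03 to 0.21) on d14 and 0.10 (-0.02 to 0.22) on d14+3, with adjusted p-values of 0.295 and 0.748 in edgeR. The value was above 0 on both days under every alternative, from 0.02 to 0.17. Neither difference had a p-value under 0.05 by the exact permutation test (two-sided p = 0.123 and 0.0909).

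The genes held 3 receptors. Tnfrsf1a encodes the main receptor for tumor necrosis factor, Il1r1 the signaling receptor for interleukin-1, and Cd14 a coreceptor for bacterial lipopolysaccharide on microglia and macrophages. Tnfrsf1a (chromosome 6, 125349362 to 125362484, plus strand) ranged from 11.1 to 16.6 CPM in Control d14 and from 12.3 to 15.7 CPM in ExpOF d14. On d14+3 it ranged from 13.2 to 20.5 CPM in control mice and from 11.8 to 16.3 CPM in ExpOF mice. Its log2 fold change was -0.06 (95% confidence interval -0.29 to 0.18) on d14 and -0.12 (-0.35 to 0.10) on d14+3, and the groups overlapped on both days. Without Control d14+3 replicate 1, the mouse with 20.5 CPM, the d14+3 value was -0.01.

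Il1r1 (chromosome 1, 40225080 to 40317257, plus strand) overlaps Gm38070 on the same strand. It had 5.07 ± 1.57 CPM in Control d14 (SD, n = 5) and 4.90 ± 0.765 CPM in ExpOF d14 (SD, n = 6), a log2 fold change of -0.03 (-0.53 to 0.47) whose sign varied with the libraries used, from -0.33 to 0.18. On d14+3 control mice had between 3.52 and 5.52 CPM (median 4.26) and ExpOF mice between 2.86 and 10.7 CPM (median 5.13). Here 3 of 6 ExpOF mice lay above every control mouse and 1 lay below all of them. The log2 fold change was 0.48 (SE 0.23; unadjusted p = 0.0512, adjusted p = 0.704 in edgeR), and the two-sided exact permutation test gave p = 0.258. Leaving out ExpOF d14+3 replicate 1, the mouse with 10.7 CPM, gave 0.24. The value was 0.71 in the July cohort alone and 0.27 in the September cohort alone.

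Cd14 (chromosome 18, 36725067 to 36726798, minus strand) had 1.98, 2.05, 2.25, 2.41 and 6.23 CPM in the 5 Control d14 mice. ExpOF d14 mice had between 1.35 and 3.03 CPM with a median of 1.93, and 3 of 6 lay below every control mouse. The log2 fold change on d14 was -0.52 (SE 0.29, adjusted p = 0.242 in edgeR) and became -0.06 without Control d14 replicate 5, which carried the 6.23 CPM. On d14+3 the means were 2.53 ± 0.813 CPM in ExpOF and 2.15 ± 0.699 CPM in control mice (SD, n = 6 each), a log2 fold change of 0.23 (-0.36 to 0.82). It ran from 0.10 to 0.40 when single libraries were left out, the lowest without ExpOF d14+3 replicate 3 and the highest without Control d14+3 replicate 1, and was 0.45 in July mice alone and 0.03 in September mice alone. The groups overlapped on both days.

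Tgfb1 and Ccl2 are the ligands of the set. Tgfb1 encodes transforming growth factor beta 1, a cytokine made by microglia and vascular cells that restrains microglial activation. The gene lies on chromosome 7 from 25687002 to 25705077, plus strand, with 28 to 152 counts per library. The 5 Control d14 mice had 3.87, 3.99, 4.52, 4.55 and 5.15 CPM, and the ExpOF d14 mice between 3.16 and 3.85 CPM with a median of 3.51. The groups did not overlap, by a margin of 3.85 against 3.87 CPM, and 0.958% of all genes tested separated in this direction.

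The Tgfb1 log2 fold change on d14 was -0.33 (SE 0.16), with an unadjusted p of 0.04997 and an adjusted p of 0.187 in edgeR. The two-sided exact permutation test gave p = 0.00216, the smallest that 462 groupings allow. Without Control d14 replicate 5 the log2 fold change was -0.26 with an unadjusted p of 0.131, and in the July and September cohorts alone it was -0.27 and -0.43. On d14+3 the levels overlapped, with 2.97 to 6.09 CPM in control mice and 2.49 to 4.51 CPM in ExpOF mice and a log2 fold change of -0.23 (-0.54 to 0.08). That value was -0.11 without Control d14+3 replicate 1, -0.42 in July mice alone and -0.05 in September mice alone.

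Microglia and mural cells were compared beside Tgfb1. The summed level of 14 microglia markers ranged from 413 to 548 CPM in Control d14 and from 400 to 461 CPM in ExpOF d14, and 2 of the 14 were higher and 3 lower at an unadjusted p under 0.05, beside 13.1% higher and 13.6% lower of all genes tested. That of 9 mural cell markers ranged from 225 to 254 CPM in Control d14 and from 199 to 223 CPM in ExpOF d14. The groups did not overlap, by a margin of 223 against 225 CPM. Taken singly, 0.958% of all genes tested separated in this direction, and no such share was computed for sums of 9 genes. Of the 9 markers, 4 were lower at an unadjusted p under 0.05, beside the same 13.6%. The part of these markers in the Tgfb1 difference was not tested.

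Ccl2 (chromosome 11, 82035571 to 82037453, plus strand) encodes a chemokine that attracts monocytes, and overlaps Gm17268 on the opposite strand. The 5 Control d14 mice had 1, 4, 5, 5 and 6 counts, and the ExpOF d14 mice between 0 and 6 counts with a median of 1.5. On d14+3 control mice had between 1 and 9 counts (median 5) and ExpOF mice between 0 and 24 counts (median 3). Of the 23 libraries 22 had under 10 counts, and ExpOF d14+3 replicate 1 had the 24. The exact permutation tests of its mean log2 CPM gave two-sided p = 0.0931 on d14 and p = 0.831 on d14+3.

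Icam1 (chromosome 9, 21015985 to 21028817, plus strand) encodes an adhesion molecule with which endothelium and microglia bind leukocytes, and it overlaps the antisense gene Gm47079. The Control d14 mice had 1.82, 1.96, 2.33, 2.48 and 6.40 CPM, and ExpOF d14 mice between 1.01 and 3.79 CPM with a median of 2.34. The log2 fold change of -0.32 on d14 (SE 0.28, adjusted p = 0.466 in edgeR) turned to 0.17 without Control d14 replicate 5, the mouse with 6.40 CPM. On d14+3 the means were 2.95 ± 0.868 CPM in ExpOF and 2.54 ± 0.285 CPM in control mice (SD, n = 6 each), a log2 fold change of 0.23 (-0.34 to 0.79), which was 0.07 without ExpOF d14+3 replicate 1, the mouse with 4.50 CPM. The groups overlapped on both days.

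Leaving out both libraries high in choroid plexus markers, an alternative chosen after the data were seen, left 0 of the 9 genes called on either day, beside 0.0053% of all genes tested on d14 and 0% on d14+3. The unadjusted p-value was then under 0.05 for 1 gene on d14, Serpina3n (log2 fold change 0.33), where 14.1% of all genes tested passed. On d14+3 there were 4, namely Lcn2 (2.24), Il1r1 (0.55), Serpina3n (0.29) and Ikbkb (0.13), all higher in ExpOF mice, where 6.83% of all genes tested passed. The lowest adjusted p among these was 0.351, for Serpina3n on d14 (edgeR).

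The days were also compared within each arm. In control mice 0 of the 9 genes differed between d14+3 and d14 at an adjusted p under 0.05, where 1.15% of all genes tested did. Lcn2 and Serpina3n were lower on d14+3 at an unadjusted p under 0.05 (2 of 9, beside 12.7% of all genes tested), with log2 fold changes of -2.42 and -0.21. Without Control d14 replicate 5 the Lcn2 value was -1.07, with an unadjusted p of 0.237, and the Serpina3n value -0.22, with an unadjusted p of 0.0551. In ExpOF mice 0 of the 9 genes were called, beside 0% of all genes tested, and Serpina3n was the 1 gene at an unadjusted p under 0.05, where 7.79% of all genes tested were.

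In ExpOF mice the Serpina3n log2 fold change between the days was -0.27 (SE 0.09, adjusted p = 0.314 in edgeR). Without ExpOF d14+3 replicate 3 it was -0.37 with an adjusted p of 0.0359, in a fit that called 157 of 18956 genes. The Serpina3n mean was 69.9 and then 57.8 CPM in overfed mice and 55.0 and then 47.5 CPM in control mice, and the interaction given above compares these changes. The comparisons within an arm share their d14 and d14+3 mice with those between arms.

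Whether the genes varied together from mouse to mouse was examined in the 8 genes with a median of at least 50 counts, which leaves out Lcn2 and Ccl2. Log2 CPM values were centred on the group mean, and 28 pairs were compared over 23 mice by permutation within groups. Of these, 8 pairs had a Benjamini-Hochberg adjusted p under 0.05 for Pearson's r, all with r above 0, and 5 of the 8 also for Spearman's rho. The other 20 pairs had r between -0.34 and 0.38. The share of such pairs over all genes tested was not computed, so the count cannot be read as particular to these genes.

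Among the 28 pairs r was highest between Cd14 and Icam1 (r = 0.78, permutation p = 0.000210, adjusted p = 0.00294; rho = 0.66, permutation p = 0.00225, adjusted p = 0.0144). Without the 2 mice farthest from the Cd14 median r was 0.69. It was 0.61 in July mice alone and 0.80 in September mice alone. Tnfrsf1a and Tgfb1 followed (r = 0.76, permutation p = 9.00e-05, adjusted p = 0.00252; rho = 0.78, permutation p = 7.00e-05, adjusted p = 0.00196), with r = 0.71 without 2 mice, 0.64 in July and 0.83 in September. Tnfrsf1a was also related to Cd14 (r = 0.71, permutation p = 0.000980, adjusted p = 0.00915; rho = 0.67, permutation p = 0.00113, adjusted p = 0.0141), with r = 0.66 without 2 mice, 0.48 in July and 0.76 in September.

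A further pair held both for r and for rho, Ikbkb with Il1r1 (r = 0.62, permutation p = 0.00467, adjusted p = 0.0218; rho = 0.64, permutation p = 0.00257, adjusted p = 0.0144). Without 2 mice its r was 0.66, and it was 0.58 in July and 0.64 in September. The last of the 5 was Cd14 with Tgfb1 (r = 0.57, permutation p = 0.00376, adjusted p = 0.0211; rho = 0.63, permutation p = 0.00151, adjusted p = 0.0141), with r = 0.46 without 2 mice, 0.61 in July and 0.50 in September. The 3 pairs that held for r alone were Il1r1 with Cd14 (r = 0.56), Il1r1 with Icam1 (r = 0.54) and Tnfrsf1a with Icam1 (r = 0.53). Among the 8 pairs r was at least 0.34 within each cohort and at least 0.46 without 2 mice, and between 0.47 and 0.76 without the libraries high in choroid plexus markers. Serpina3n and Nfkbia were in none of the 8 pairs.

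**Figure D3:**
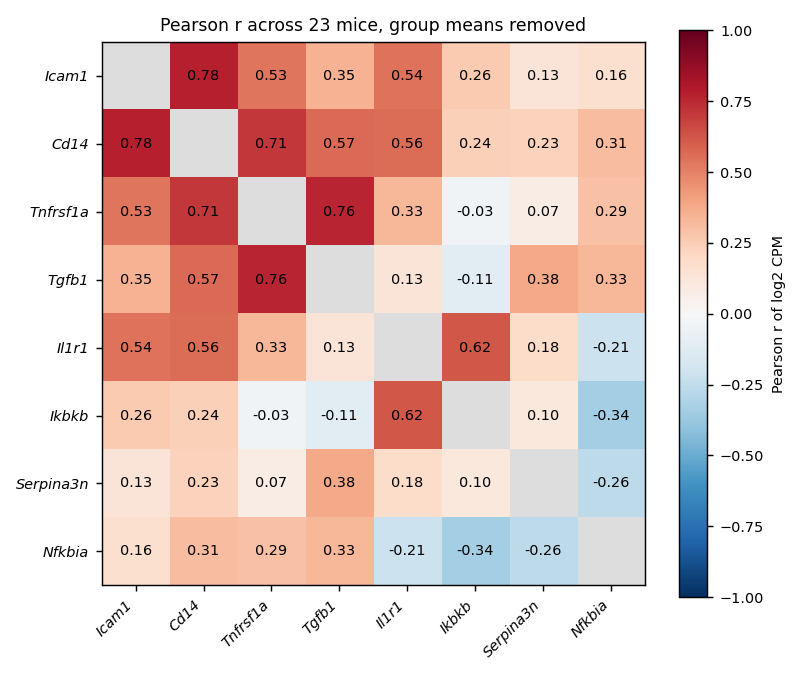
Pearson's r for each pair of the 8 genes (both axes) over 23 mice, computed on log2 CPM with the group means removed and printed in each cell, with red for positive and blue for negative values. The 2 receptors Cd14 and Tnfrsf1a, Icam1 and Tgfb1 have r between 0.35 and 0.78 with each other, while Serpina3n and Nfkbia have r between -0.34 and 0.38 with the other genes.

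The same mice tended to carry the extremes. Control d14 replicate 5 had the highest Lcn2 (21.0 CPM), Cd14 (6.23 CPM), Icam1 (6.40 CPM), Tgfb1 (5.15 CPM), Tnfrsf1a (16.6 CPM) and Nfkbia (18.0 CPM) of its group. Its microglia markers summed to 548 CPM, its endothelial markers to 333 CPM and its mural cell markers to 254 CPM, each the highest of the 23 libraries. Its RNA integrity number, 8.0, was the lowest of its group. ExpOF d14+3 replicate 1 had the highest Icam1 (4.50 CPM), Il1r1 (10.7 CPM), Tnfrsf1a (16.3 CPM) and Ccl2 (24 counts) of its group. Its markers of meningeal fibroblasts summed to 218 CPM and those of perivascular macrophages to 32.8 CPM, against medians of 56.6 and 8.95 CPM in the group. Control d14+3 replicate 1 had the highest Serpina3n (55.7 CPM), Cd14 (3.39 CPM), Tgfb1 (6.09 CPM), Tnfrsf1a (20.5 CPM), Il1r1 (5.52 CPM) and Ccl2 (9 counts) of its group. The same markers summed to 292 and 32.99 CPM in that mouse, against medians of 73.0 and 10.7 CPM in its group. In ExpOF d14, replicate 3 had the highest Lcn2 (6.06 CPM), Cd14 (3.03 CPM), Icam1 (3.79 CPM), Tnfrsf1a (15.7 CPM) and Il1r1 (6.19 CPM). Its meningeal fibroblast and perivascular macrophage markers summed to 107 and 14.4 CPM, against group medians of 58.6 and 7.96 CPM. Other mice did not show this pairing. ExpOF d14+3 replicate 3 had the highest Lcn2 (15.1 CPM), Cd14 (3.57 CPM) and Serpina3n (76.4 CPM) of its group, and these markers summed to 56.0 and 7.36 CPM. In Control d14 replicate 5 they summed to 77.9 and 9.82 CPM, against group medians of 81.8 and 10.5 CPM. Control d14+3 replicate 2 had sums of 143 and 19.5 CPM, with 1.89 CPM of Cd14 and 0.927 CPM of Lcn2. The part of these cell types and of RNA integrity in the shared variation was not tested.

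**Figure D4:**
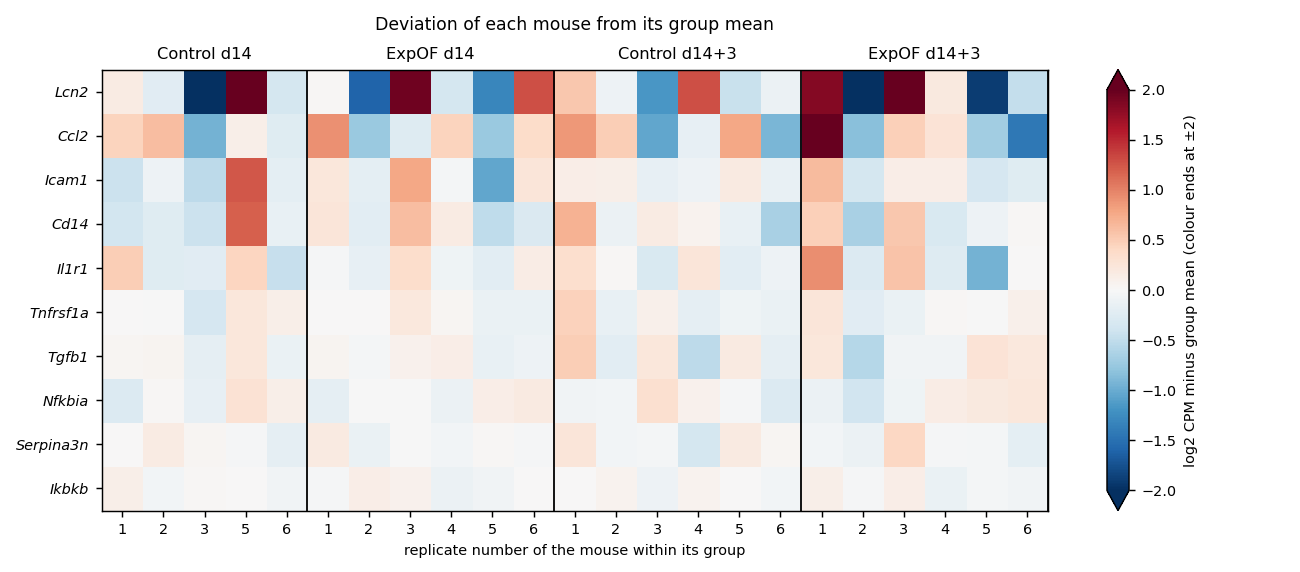
Log2 CPM of each gene (rows) in each of the 23 mice (columns, grouped and numbered by replicate) minus the mean of its group, with red above and blue below the group mean and the color scale ending at ±2. Lcn2 deviates most. Control d14 replicate 5, ExpOF d14 replicate 3, Control d14+3 replicate 1 and ExpOF d14+3 replicates 1 and 3 lie above their group means for Lcn2, Icam1, Cd14 and Il1r1 together.

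The genes of all those tested with a mean of at least 50 counts whose levels followed each member most closely were listed by the same group-centred Pearson's r over 23 libraries (14173 genes compared, a description without a test). For Tgfb1 these were Unc93b1 (0.90), Usp4 (0.84) and P2rx4 (0.83), and for Tnfrsf1a Stat6 (0.85), Unc93b1 (0.84) and Slco2a1 (0.80). Cd14 went with Acvrl1 (0.84), Fcer1g (0.83) and Ifitm2 (0.83), and Icam1 with Ifitm2 (0.87), Ifi30 (0.81) and Acacb (0.80). Unc93b1 thus appeared for both Tgfb1 and Tnfrsf1a, and Ifitm2 for both Cd14 and Icam1. Il1r1 went with Fn1 (0.84), Fyb (0.84) and Cp (0.84), and Ikbkb with Adgb (0.85), Ascc2 (0.84) and Ift172 (0.83). The closest genes to Nfkbia were R3hdm4 (0.81), Pygo2 (0.80) and Atp6v1g2 (0.80), and to Serpina3n Zdhhc13 (0.74), Atp5l (0.74) and Trh (0.73). The 23 libraries differed in depth and in the summed levels of cell type markers, and the part of either in these relations was not tested.

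RNA integrity was set against the same 8 genes, again within groups. Pearson's r with the RNA integrity number ranged from -0.29 for Ikbkb to 0.16 for Tnfrsf1a, and the lowest Benjamini-Hochberg adjusted permutation p over the 8 relations was 0.728 for r and 0.669 for Spearman's rho. For Serpina3n r was -0.11 over all mice, -0.01 without the 2 mice farthest from the median integrity, -0.52 in July mice alone and 0.49 in September mice alone.

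Genes around the 10 were taken from 6 lists of the same pathways, which hold none of the 10. Of the 133 listed genes that were tested, each counted once although 2 stand in more than one list, 0 were called on either day with edgeR, and with DESeq2 1 was called on d14, Stat3, and 0 on d14+3. At an unadjusted p under 0.05 in edgeR, 16 were higher and 7 lower on d14, together 17.3% beside 26.7% of all genes tested. On d14+3 6 were higher and 4 lower, together 7.5% beside 7.11% of all genes tested, of which 2.91% were higher and 4.2% lower. The median log2 fold change over all genes tested was -0.02 on d14 and 0.01 on d14+3. Levels of the listed genes are means ± SD over 6 ExpOF mice and over 5 control mice on d14 or 6 on d14+3.

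The NF-kB pathway list (33 tested) had 5 genes higher and 2 lower on d14 at an unadjusted p under 0.05, with a median log2 fold change of 0.01, and 2 higher and 2 lower on d14+3, with a median of 0.02. These are 21.2% and 12.1% of the list, beside the 26.7% and 7.11% of all genes tested. Relb, an NF-kB subunit of the noncanonical arm, had 4.02 ± 0.642 CPM in ExpOF d14 and 5.28 ± 0.928 CPM in Control d14 (log2 fold change -0.41, adjusted p = 0.137 in edgeR). Traf6, an adaptor of interleukin-1 and Toll-like receptor signaling, had 22.7 ± 1.81 and 19.0 ± 2.25 CPM (0.26, adjusted p = 0.138). On d14+3 Nfkbiz had a log2 fold change of 0.29 and Nfkbie, a further NF-kB inhibitor, of -0.41, with adjusted p-values of 0.575 and 0.590.

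The list of acute-phase and reactive astrocyte genes (23 tested) had 1 gene higher and 2 lower on d14 (median -0.14) and 4 higher and 0 lower on d14+3 (median 0.05), which is 13.0% and 17.4% of the list beside 26.7% and 7.11% of all genes tested. Stat3, the transcription factor that drives acute-phase genes, had 94.6 ± 2.53 CPM in ExpOF d14 and 84.2 ± 4.72 CPM in Control d14, a log2 fold change of 0.17 with an unadjusted p of 0.00106 (adjusted p = 0.135 in edgeR). With DESeq2 the log2 fold change was 0.18 with an adjusted p of 0.0227. On d14+3 its levels were 86.9 ± 3.30 and 81.0 ± 2.97 CPM, a log2 fold change of 0.10 (adjusted p = 0.640). Slc22a17, which encodes a lipocalin 2 receptor, had 755 ± 24.9 CPM in ExpOF d14 and 872 ± 98.2 CPM in Control d14 (log2 fold change -0.21, adjusted p = 0.162). A2m, an acute-phase protease inhibitor, had a log2 fold change of 0.31 on d14+3 (adjusted p = 0.589).

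Of 26 cytokine and pattern receptors 24 were tested, with 3 higher and 1 lower on d14 (median -0.07) and 0 in either direction on d14+3 (median 0.05), which is 16.7% and 0% of the list beside 26.7% and 7.11% of all genes tested. Lifr, a receptor of leukemia inhibitory factor, had 34.6 ± 0.848 CPM in ExpOF d14 and 26.6 ± 5.198 CPM in Control d14 (log2 fold change 0.38, adjusted p = 0.135 in edgeR). Lbp, which hands lipopolysaccharide to Cd14, had 5.85 ± 1.03 and 10.6 ± 6.27 CPM (-0.84, adjusted p = 0.135). On d14+3 the smallest p-values were those of Osmr, the oncostatin M receptor, and Ifngr2, an interferon-gamma receptor chain, with log2 fold changes of 0.56 and -0.13 and adjusted p-values of 0.704 and 0.744.

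Of 31 cytokines and chemokines 16 were tested, with 0 higher and 1 lower on d14 (median -0.04) and 1 in each direction on d14+3 (median 0.00), which is 6.2% and 12.5% of the list. The chemokine Cxcl14 had log2 fold changes of -0.15 on d14 and -0.23 on d14+3, and Tnfsf12, which encodes TWEAK, of -0.24 and -0.19, with adjusted p-values between 0.183 and 0.755 in edgeR. Among 14 tested leukocyte adhesion genes 1 was higher on d14 (median -0.10) and 0 passed on d14+3 (median 0.01), which is 7.1% and 0% of the list. Both pairs of shares stand beside 26.7% and 7.11% of all genes tested. Jam2, a junctional adhesion molecule, had a log2 fold change of 0.17 on d14 (adjusted p = 0.138) and Icam5 of -0.16 (adjusted p = 0.286). On d14+3 those of Icam2 and Itgam were -0.24 and 0.17.

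The TGF-beta pathway list (25 tested) had 6 genes higher and 1 lower on d14 (median -0.05), and 0 higher and 1 lower on d14+3 (median -0.04), which is 28.0% and 4.0% of the list beside 26.7% and 7.11% of all genes tested. Lrrc32, which encodes a docking protein for latent TGF-beta, had 3.19 ± 0.234 CPM in ExpOF d14 and 4.44 ± 0.615 CPM in Control d14, a log2 fold change of -0.47 (adjusted p = 0.135 in edgeR). Itgav, an integrin chain that activates latent TGF-beta, had 40.6 ± 2.69 and 32.9 ± 3.81 CPM, a log2 fold change of 0.30 (adjusted p = 0.140). On d14+3 Ski, a repressor of TGF-beta signaling, had a log2 fold change of -0.11, with an adjusted p of 0.616 in edgeR.

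Control d14 replicate 4, the library left out, had 0.103 CPM of Icam1, 2.98 CPM of Il1r1 and 33.8 CPM of Ikbkb, below the other Control d14 mice in each case. Its Serpina3n was 49.0 CPM and its Lcn2 4.84 CPM, within their range, and its choroid plexus markers summed to 4566 CPM. With this library included, 0 of the 9 genes were called in any of the 5 comparisons, where 1 of 18767 genes was called on d14, 160 between the days in control mice and 0 in the other comparisons.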

How the data were processed

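The authors sequenced poly-A selected, stranded hypothalamus libraries, aligned the reads to mm10 with STAR, counted them on GENCODE vM22 genes with featureCounts 1.6.4 and deposited raw counts per gene. Whether featureCounts used strand is not given in the sources used here. Symbols came from GENCODE vM21, which paired 55144 of 55471 gene IDs. Counts were analysed with edgeR 4.0.16 in R 4.3.3 (TMM scaling, filterByExpr at a count of 10 and a total of 15, a quasi-likelihood model with robust dispersion over 4 groups and 23 libraries, adjusted p under 0.05), with DESeq2 1.42.0 as an alternative, and the tests were tried on simulated data. The left-out library was identified because the study's mean expression values match only without it. CPM values use TMM factors, and log2 CPM a prior count of 2. Labels give 2 cohorts (July, September) and 2 extraction rounds, with each cohort and round in every group. Mice are separate animals. Groups were taken from the labels, and single genes were compared by two-sided exact permutation tests (20 comparisons). Relations used 100000 resamples within groups. The genes named are the 10, the 2 genes of each list with the smallest p on each day (mean of at least 20 counts) and the 3 genes most like each of the 8. A further gene that this rule names is not reported here. The 10 genes and the lists were chosen with earlier results of these data known.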

Additional observations from a re-analysis of the deposited data

Results flagged for a closer look

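In 40 combinations of gene and group, 5 had a single mouse far from the others by Dixon's test on CPM. Chance gives about 1 in 20 for independent, normally distributed values. CPM was not put on a log scale here and some flags share a mouse, so the count cannot be set against that rate. The highest values of Lcn2 (21.0 CPM, next 3.73), Cd14 (6.23 CPM, next 2.41) and Icam1 (6.40 CPM, next 2.48) in Control d14 were all those of replicate 5. In ExpOF d14+3 the highest Serpina3n value was 76.4 CPM in replicate 3 (next 56.4), and the highest Ccl2 value was 0.964 CPM in replicate 1 (next 0.229), a gene with 24 counts there.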

How the results depend on the processing

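Of the log2 fold changes of the 9 genes under alternatives, 407 kept their sign and their side of the threshold, 11 changed sign and 1, that of Serpina3n on d14 without Control d14 replicate 1, crossed the threshold. The sign changes were those of Il1r1 on d14 (0.0582 with all 24 libraries, 0.18 in the July cohort alone, 0.0604 with RNA integrity as a covariate, 0.0850 without both libraries high in choroid plexus markers, and -0.15 to 0.10 without single libraries), Icam1 on d14 (0.17 without those choroid plexus libraries and -0.52 to 0.17 without single libraries, the highest without Control d14 replicate 5), Tnfrsf1a on d14 (-0.14 to 0.00258 without single libraries, the highest without Control d14 replicate 5) and Nfkbia on d14+3 (0.00106 in the September cohort alone). The cause was not tested.

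The number of these genes called was 0 under the alternatives run (7 genes tested with at least 10 counts in every library, 10 with at least 1 count in all), except that leaving out single libraries gave 0 to 1 on d14 and 0 to 1 between the days in ExpOF mice, the gene being Serpina3n. At an unadjusted p under 0.05 the number on d14 was 1 with DESeq2, DESeq2 size factors, either cohort alone, the RNA integrity covariate, the replicate block or without both choroid plexus libraries, and 1 to 3 without single libraries. On d14+3 it was 1 with at least 10 counts in every library, in the September cohort or with the replicate block, 4 with the RNA integrity covariate or without both choroid plexus libraries, and 1 to 4 without single libraries. Over all genes, the calls on d14 were 166 with DESeq2, 0 in either cohort alone, 2 with only the groups compared and 1 to 4220 without single libraries, and on d14+3 they were 55 with DESeq2 and 26 with the RNA integrity covariate. Between the days in control mice they were 531 with DESeq2, 0 in either cohort alone or with only the groups compared, 33 with the replicate block and 24 to 313 without single libraries. In ExpOF mice they were 202 with DESeq2, 28 with at least 10 counts in every library, 78 with cohort and extraction round as covariates, 123 with only the groups compared and 0 to 157 without single libraries.

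Same-numbered mice of different groups had a median correlation of -0.03 (33 pairs, range -0.25 to 0.36), and the samples were not treated as paired. The replicate number does carry the extraction round, with replicates 1 to 3 in round 1 and 4 to 6 in round 2 of every group. The exact permutation tests kept their side of 0.05 with a prior count of 0.5. Depth limits Ccl2 most, with 3 counts or fewer in 12 of 23 libraries.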
